A study of Rattus norvegicus with 6 samples.

Results

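A set of 8 genes of cholesterol synthesis and of the transcription factor SREBP2 were followed in rat 832/13 INS-1 cells, a clonal insulinoma line that secretes insulin, after depletion of COUP-TFII, a nuclear receptor encoded by Nr2f2. They were Hmgcs1, Idi1, Fdps, Fdft1, Sqle and Cyp51, which encode enzymes of the pathway, and Srebf2 and Insig1, which encode SREBP2 and a protein that holds it back. Members were taken by gene symbol, as every probe set that the platform annotation gives to one of these symbols alone. This gave 11 probe sets of 31042 tested, for 7 of the 8 genes. No probe set here was annotated to Hmgcs1, and its level was not analysed here. Each probe set combines several short probes into 1 signal, a linear MAS5 intensity.

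The COUP-TFII depleted cells had received COUP-TFII siRNA and the control cells a scrambled siRNA, both by electroporation, with 3 arrays in each group. Both groups were cells between passages 7 and 25, grown in 11 mM glucose and harvested 48 h after transfection. The labels call the arrays of a group biological replicates and number them 1, 2 and 3 in both groups, but they do not say what arrays of the same number share. A bulk culture was measured, so fewer cells that make a transcript and less of it in each cell cannot be told apart.

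Array medians ran from 29.9 to 39.4, and they were lowest on the replicate 2 array of each group (31.2 in COUP-TFII depleted cells and 29.9 in control cells). Background was scaled by the 27 probe sets for Bacillus spike-in transcripts, absent from rat RNA, whose highest signal was 20.7. Nr2f2 read 47.0, 27.7 and 23.8 in COUP-TFII depleted cells, against 182, 235 and 179 in control cells (probe set 1389554_at, log2 fold change -2.65, limma adjusted p = 0.404, and adjusted p = 0.0185 with the replicate number as a block). A second Nr2f2 probe set, 1370063_at, was also lower on all 3 arrays of depleted cells, and the third, 1395863_at, lay below the background scale. All 7 measured markers of β cells, of 10 listed, lay above the median signal, among them Ins1 and Ins2, and the summed signal of the 7 ran from 34002 to 36876 in depleted cells and from 26027 to 35253 in control cells. Of 12 markers of other cells only Gcg, the glucagon gene of α cells, was bright, at 8056, 4789 and 817 in depleted cells and 6313, 3397 and 394 in control cells. The other 11 read at most 35.7 on any array, so that the summed signal of the 12, from 936 to 8187 in depleted cells and from 558 to 6462 in control cells, followed Gcg. What part these cells or this signal had in the levels below was not tested.

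Cells make cholesterol from acetyl-CoA. Acetyl-CoA is built up to mevalonate, mevalonate is turned into isoprenoid units, the units are joined to squalene, and squalene is oxidised and closed to lanosterol, the first sterol. SREBP2 is made as a membrane protein of the endoplasmic reticulum. When sterols are scarce its escort protein SCAP carries it to the Golgi, where proteases release the part that enters the nucleus and binds sterol regulatory elements (SREs) in the promoters of these genes. When sterols are plentiful the INSIG proteins hold SCAP in the endoplasmic reticulum. Insig1 and Srebf2 are themselves targets of SREBP2, which is why their transcripts, like those of the enzymes, are used as a readout of its activity. In β cells membrane cholesterol is known to bear on the secretion of insulin.

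The members are known as targets of one factor. The sequence before the transcript start is shown for the 5 measured members that have an entry in the RefSeq promoter table (build GRCr8). Each run is 200 bases long and ends just before the start of a RefSeq transcript. Capitals mark matches to 3 motifs on either strand. These were the SRE core TCACNCCAC with at most 1 mismatch, the CCAAT box CCAAT, which binds NF-Y, a usual partner of SREBP2, and the half-site AGGTCA that COUP-TFII and other nuclear receptors bind.
Insig1 (chr4:8057770-8057969, minus strand): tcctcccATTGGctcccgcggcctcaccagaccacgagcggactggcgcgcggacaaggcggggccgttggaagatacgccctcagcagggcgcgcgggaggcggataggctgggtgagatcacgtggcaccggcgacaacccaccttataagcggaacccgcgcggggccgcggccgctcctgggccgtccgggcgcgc
Srebf2 (chr7:115543107-115543306, plus strand): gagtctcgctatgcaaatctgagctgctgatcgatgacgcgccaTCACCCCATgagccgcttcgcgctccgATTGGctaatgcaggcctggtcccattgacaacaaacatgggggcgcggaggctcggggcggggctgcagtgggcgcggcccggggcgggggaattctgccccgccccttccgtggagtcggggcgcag
Fdps (chr2:176804817-176805016, minus strand): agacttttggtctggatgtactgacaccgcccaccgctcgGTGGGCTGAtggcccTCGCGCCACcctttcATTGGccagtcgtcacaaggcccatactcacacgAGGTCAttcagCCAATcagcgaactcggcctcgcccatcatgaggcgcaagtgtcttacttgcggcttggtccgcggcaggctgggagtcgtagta
Cyp51 (chr4:30991493-30991692, plus strand): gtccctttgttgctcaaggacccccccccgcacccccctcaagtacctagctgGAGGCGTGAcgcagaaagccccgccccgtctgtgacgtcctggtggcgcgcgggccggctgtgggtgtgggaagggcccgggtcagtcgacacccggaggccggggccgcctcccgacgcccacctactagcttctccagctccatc
Idi1 (chr17:66547525-66547724, minus strand): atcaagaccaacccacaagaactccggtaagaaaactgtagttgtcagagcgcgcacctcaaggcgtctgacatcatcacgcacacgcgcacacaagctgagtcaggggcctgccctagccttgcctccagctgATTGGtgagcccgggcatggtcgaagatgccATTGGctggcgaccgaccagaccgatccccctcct

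The motifs were searched on both strands of the full windows, from 250 bases before the start to 50 after it, in 33469 RefSeq promoters and in those of the 6 members present in the table, Hmgcs1 included. TCACNCCAC without a mismatch was in none of the 6 windows and in 1.12% of all promoters. With 1 mismatch allowed, a search added after the first had given no match, it was in 4 of 6 windows and in 23.7% of all promoters. Srebf2 had it at position -156, counted from the transcript start, Fdps at -160 and -145, and Cyp51 at -147, while the matches of Insig1 lay outside the run shown. CCAAT was in 5 of 6 windows, with Cyp51 the exception, and in 37.5% of all promoters. The GC box GGGCGG, a site of SP1, was in 5 of 6 windows, with Idi1 the exception, and in 33.1% of all. AGGTCA was in the Fdps window alone, at -96, and in 16.2% of all promoters. The motifs did not overlap in the runs shown. A match says only that these letters are present.

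With the replicate number left aside, no member differed between COUP-TFII depleted and control cells beyond the spread of the arrays. The unpaired limma fit gave Nr2f2 1389554_at, the siRNA target, an adjusted p of 0.404 at -2.65 on the log2 scale. It thus cannot show that members were unchanged. With that number as a block, the interval was 0.017 to 0.42 for Fdps and -0.62 to -0.12 for Cyp51 1387020_at. The intervals of the other probe sets included both signs. After adjustment the limma p-values of Fdps and this Cyp51 probe set were 0.797 and 0.768. The largest positive difference among the brightest probe sets of the 7 genes was 0.22 on the log2 scale (Fdps), and the largest negative difference was -0.16 (Srebf2). The groups overlapped for all 11 probe sets. Each number from here on is a signal unless it is called a log2 difference.

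Idi1, the isomerase that interconverts the first isoprenoid units, was the steadiest of the enzymes. Probe set 1368878_at read 1148, 1401 and 1189 in COUP-TFII depleted cells, against 1150, 1151 and 1155 in control cells. The 3 control arrays lay within an SD of 2.69, and only the replicate 2 array of depleted cells stood above the rest. The log2 fold change was 0.11 (SE 0.13, 95% interval -0.19 to 0.41). The second probe set, 1388872_at, read 347, 318 and 347 in depleted cells and 280, 321 and 317 in control cells, with a log2 fold change of 0.14. There the replicate 2 array was the lowest of the depleted cells, so the 2 probe sets of Idi1 did not share their order.

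Fdps, farnesyl diphosphate synthase, makes the last compound that cholesterol shares with prenylated proteins, dolichol and ubiquinone. Its signal was 1614, 2146 and 1247 in depleted cells, against 1429, 1676 and 1148 in control cells (1669 ± 452 and 1418 ± 264, SD, n = 3 each). Every depleted array was higher than the control array of the same number, with log2 differences of 0.18, 0.36 and 0.12. The order of the 3 arrays was the same in both groups, with replicate 2 highest and replicate 3 lowest. The log2 fold change of 0.22 had an SE of 0.22 and a 95% interval of -0.29 to 0.72. With the replicate number as a block the same difference had an SE of 0.089 and an interval of 0.017 to 0.42, and its limma p, 0.0367 before adjustment, was 0.797 after it.

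Fdft1, squalene synthase, takes the first step that leads to sterols alone. Probe set 1367839_at read 119, 166 and 116 in depleted cells, against 88.6, 151 and 137 in control cells. Probe set 1389906_at read 57.3, 85.6 and 73.0 in depleted cells and 42.5, 69.8 and 75.9 in control cells. In both probe sets the depleted array was higher than its control in pairs 1 and 2 and lower in pair 3. The log2 fold changes were 0.11 (SE 0.26) and 0.22 (SE 0.31). Each turned negative when the replicate 1 array of control cells was left out, at -0.12 and -0.035.

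Sqle, squalene epoxidase, is a slow step of the sterol pathway and a sensitive target of SREBP2. It read 420, 612 and 445 in depleted cells, against 386, 651 and 414 in control cells (493 ± 104 and 484 ± 145, SD, n = 3 each). The replicate 2 arrays were the 2 highest, one in each group. Between groups the log2 fold change was 0.047 (SE 0.23, 95% interval -0.48 to 0.57), and it was -0.12 without the replicate 2 array of depleted cells.

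Cyp51, lanosterol demethylase, removes a methyl group from the first sterol. Probe set 1367979_s_at read 922, 1326 and 908 in depleted cells, against 949, 1426 and 1021 in control cells. Probe set 1387020_at read 162, 224 and 120 in depleted cells, against 193, 289 and 168 in control cells. Both were lower in depleted cells in 3 of 3 same-numbered pairs, and in both the groups overlapped because the replicate 2 array of depleted cells was above the replicate 1 and 3 arrays of control cells. The log2 fold changes were -0.11 (SE 0.21, 95% interval -0.58 to 0.37) and -0.37 (SE 0.28, 95% interval -1.0 to 0.27). The pairs of 1387020_at differed by -0.25, -0.36 and -0.49 on the log2 scale. With the replicate number as a block its limma p was 0.00819 before adjustment and 0.768 after it, while for 1367979_s_at, the brighter probe set, the interval with the block was -0.29 to 0.079. Probe sets whose names end in _s_at can match more than 1 transcript, so the reading of 1367979_s_at may include others.

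Insig1, the sterol-regulated brake on SREBP2, read 313, 552 and 409 in depleted cells, against 329, 633 and 357 in control cells (425 ± 121 and 440 ± 168, SD, n = 3 each). The replicate 2 array was again the highest of each group. The log2 fold change was -0.024 (SE 0.29, 95% interval -0.67 to 0.63), and it moved to 0.062 without both replicate 2 arrays.

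Srebf2 read 260, 420 and 368 on probe set 1371979_at in depleted cells, against 358, 439 and 359 in control cells. Replicate 1 of the depleted cells was the lowest of the 6, and without it the log2 fold change of -0.16 (SE 0.20, 95% interval -0.62 to 0.29) was 0.035. The second probe set, 1377489_at, read 19.5, 3.76 and 12.3 in depleted cells and 13.8, 13.6 and 2.82 in control cells. All 6 of its signals lay under the background scale of 20.7, so it gave no usable reading of Srebf2.

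**Figure D1:**
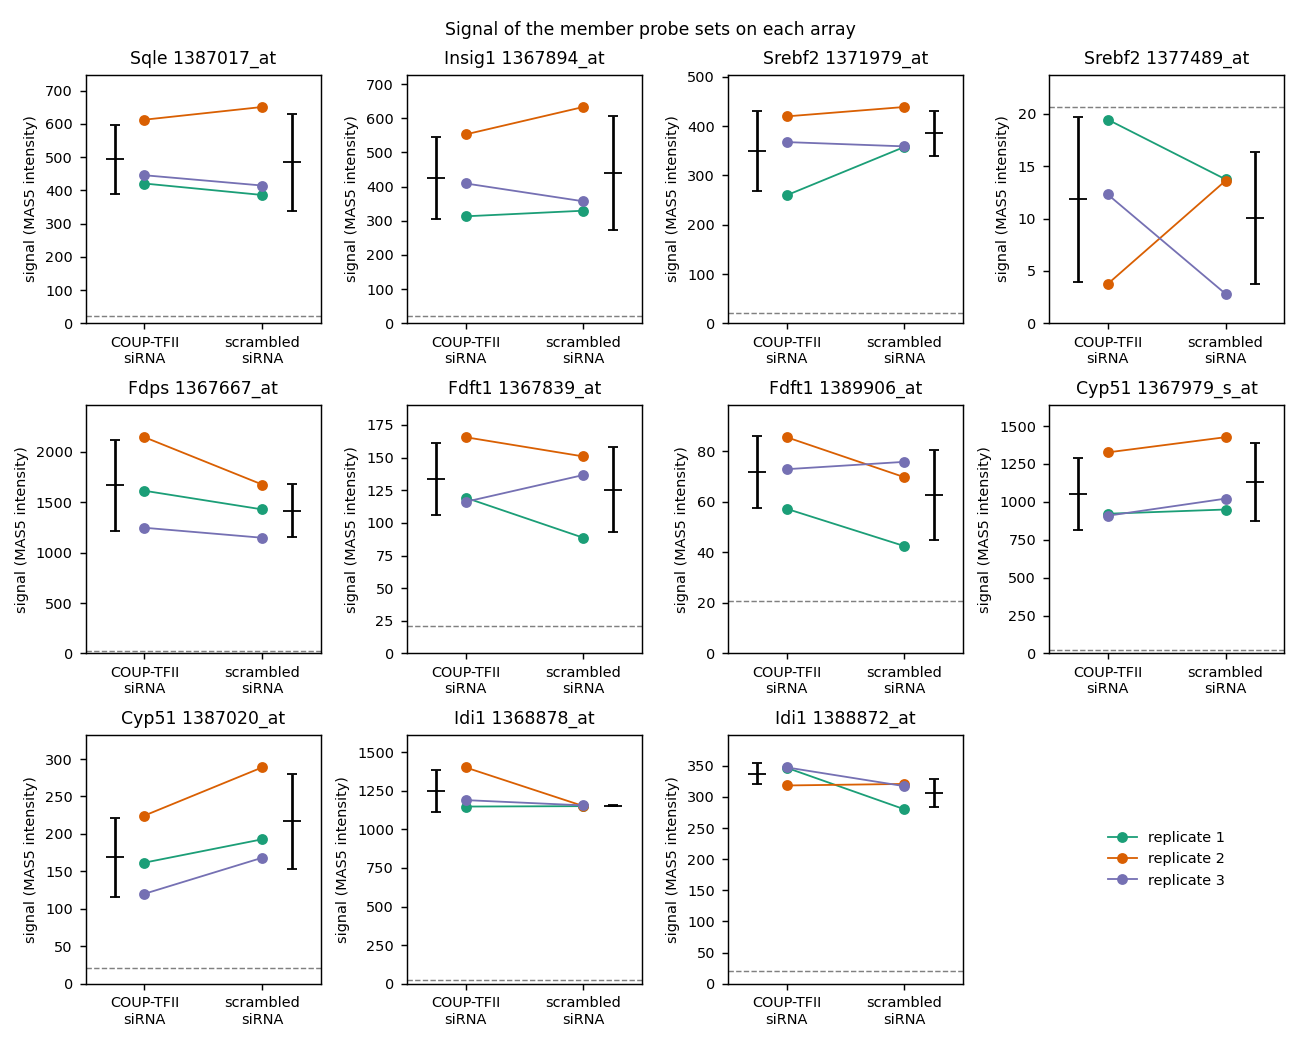
Signal (MAS5 intensity, linear axis from 0) of each of the 11 member probe sets, with COUP-TFII siRNA on the left and scrambled siRNA on the right of each panel. Points are arrays, lines join arrays of the same replicate number, black bars give the mean ± SD of 3 arrays and dashed lines mark the background scale of 20.7. The replicate 2 points lie above the others in both groups in 7 of 11 panels.

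Between groups, limma called none of the 11 member probe sets at an adjusted p under 0.05, against 0 of all 31042 probe sets (0%). With the replicate number as a block it again called none, against 5 of 31042 (0.0161%). Before adjustment, 0 of 11 reached a limma p of 0.05 without the block, where 2.31% of all probe sets did. With the block 2 of 11 did, Fdps and Cyp51 1387020_at, where 6.23% of all probe sets did, and the members' adjusted p-values ran from 0.768 to 0.977. Exact permutation tests over the arrays gave two-sided p-values from 0.2 to 1 for the 11 probe sets, where 0.1 is the smallest that 3 against 3 arrays allow. The groups did not overlap in 0 of 11 members and in 6.69% of all probe sets. One member, Fdps, was higher in depleted cells in all 3 same-numbered pairs, as were 13.4% of all probe sets, and 2, both of Cyp51, were lower in all 3, as were 14.0% of all. Read against these shares of the whole array, neither count sets the members apart.

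The precision differed between the fits. Standard errors of the brightest probe sets ran from 0.13 to 0.29 without the block and from 0.082 to 0.15 with it. Without the block the 95% intervals of these 7 reached no lower than -0.67 and no higher than 0.72, and the narrowest, of Idi1 1368878_at, was -0.19 to 0.41. With the block all 7 were narrower. The median log2 fold change of the 7 genes was 0.047, beside -0.0031 over all probe sets. It depended on single arrays, since it was -0.12 without the replicate 1 array of control cells and 0.26 without their replicate 2 array.

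**Figure D2:**
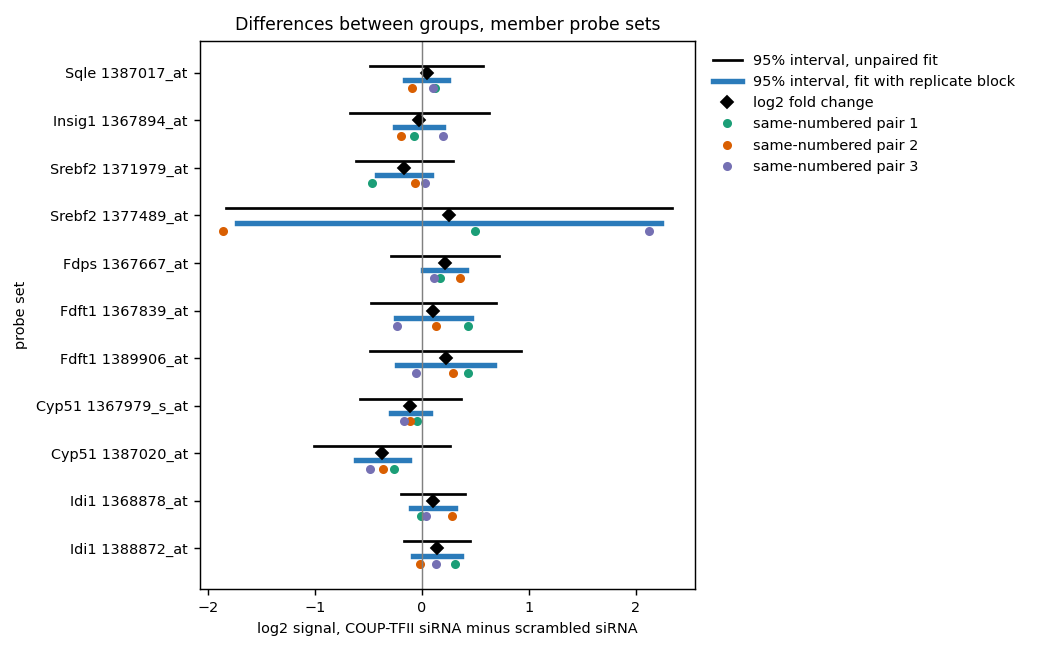
Difference in log2 signal, COUP-TFII siRNA minus scrambled siRNA, for each member probe set (diamonds), with 95% intervals of the unpaired limma fit (black) and of the blocked fit (blue). Coloured points are the differences of the 3 same-numbered pairs of arrays. The blue interval lies clear of 0 for Fdps and Cyp51 1387020_at alone, and every black interval spans 0.

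In 10 of the 11 member probe sets more of the variance went with the replicate number than with the group. The exception was Idi1 1388872_at, with 13.0% by number and 47.3% by group. Over all probe sets the median shares were 56.1% by number and 8.58% by group. In the members' signal range they were 74.1% and 5.59%, so this order was the usual one and does not set the members apart. The replicate number takes more values than the group, so its share tends to be the larger even where neither has an effect. Variation by replicate number was part of how the genes were chosen to be read, so it is described here with no test. The replicate 2 array was the highest of its group in both groups for 7 of 11 member probe sets, against 15.0% of all probe sets, and for 6 of the 7 brightest, with Idi1 the exception. The share was higher for brighter probe sets, and among the 8106 probe sets in the signal range of the 7 it was 32.3%. In depleted cells Insig1 was 1.54-fold higher on replicate 2 than on the geometric mean of replicates 1 and 3, and in control cells 1.85-fold. Sqle was 1.42-fold higher in depleted cells and 1.63-fold in control cells. Cyp51 1367979_s_at was 1.45-fold higher in both. At the other end stood Idi1 1368878_at, which was 1.20-fold higher in depleted cells and 0.998-fold in control cells.

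Over the 7 genes the median log2 difference of replicate 2 from the other numbers was 0.50 in depleted cells and 0.46 in control cells. Over all probe sets it was -0.050 in depleted cells and -0.11 in control cells, and over those of the same signal range 0.057 in depleted cells and 0.10 in control cells. The sign for the members did not depend on the scaling of the arrays. After quantile normalization the medians of the 7 were 0.48 in depleted cells and 0.46 in control cells, beside 0.070 in depleted cells and 0.073 in control cells for all probe sets. After centring on array medians they were 0.77 in depleted cells and 0.81 in control cells, beside 0.22 in depleted cells and 0.25 in control cells for all probe sets, which that scaling moved by more than 0.1 on the log2 scale because the replicate 2 arrays had the lowest medians. The share of dim probe sets moved with it, with 42.2% of probe sets at or below the background scale on replicate 2 of depleted cells and 43.7% on replicate 2 of control cells, and 36.2% to 39.1% on the other 4 arrays. What part these array properties had in the members' levels was not tested.

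**Figure D3:**
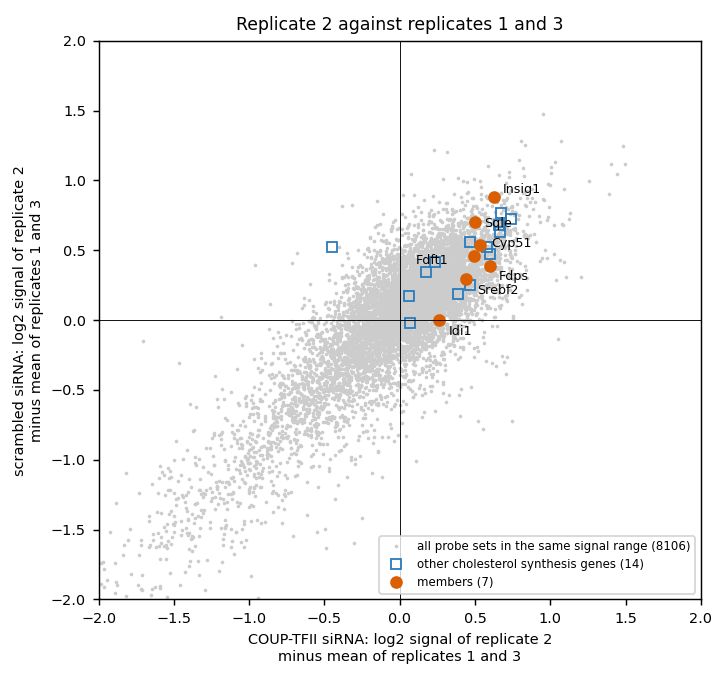
Log2 signal of the replicate 2 array minus the mean of the replicate 1 and 3 arrays, in COUP-TFII siRNA (x axis) and in scrambled siRNA (y axis), for the 7 members, 14 other cholesterol synthesis genes and the 8106 probe sets in the members' signal range (80 of these lie outside the axes). All 7 members lie right of 0 and all but Idi1 lie clearly above 0, in the upper right part of the cloud.

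In the variance of a probe set over the 6 arrays, 96.7% went with the replicate number for Sqle, 95.2% for Insig1 and 94.9% for Cyp51 1367979_s_at. The share was 83.7% for Fdps, 75.0% for Fdft1 1367839_at, 69.0% for Srebf2 1371979_at and 36.1% for Idi1 1368878_at. The group took between 0.10% and 26.9% of the variance of these 7, with Idi1 the highest. The median share of the replicate number was 83.7% over the 7 genes, beside 56.1% over all probe sets and 74.1% over those of the same signal range, where the 90th percentile was 96.0%. So Sqle alone lay above that percentile, and variation by number was common on these arrays.

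The members also tracked one another from array to array, again as a description over 6 arrays that share their array-wide properties. Among the 21 pairs of genes, Pearson's r ran from 0.24 for Srebf2 with Fdps to 0.97 for Sqle with Insig1, with a median of 0.69. Pairs of other probe sets were not computed, so whether these values are high for the array was not tested. Sqle, Insig1 and Cyp51 formed the tightest trio, with r between 0.92 and 0.97. Srebf2 followed Insig1 (0.83) more closely than it followed Fdps. The isoprenoid enzymes Idi1 and Fdps had an r of 0.69 with each other and of 0.48 and 0.56 with Insig1.

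**Figure D4:**
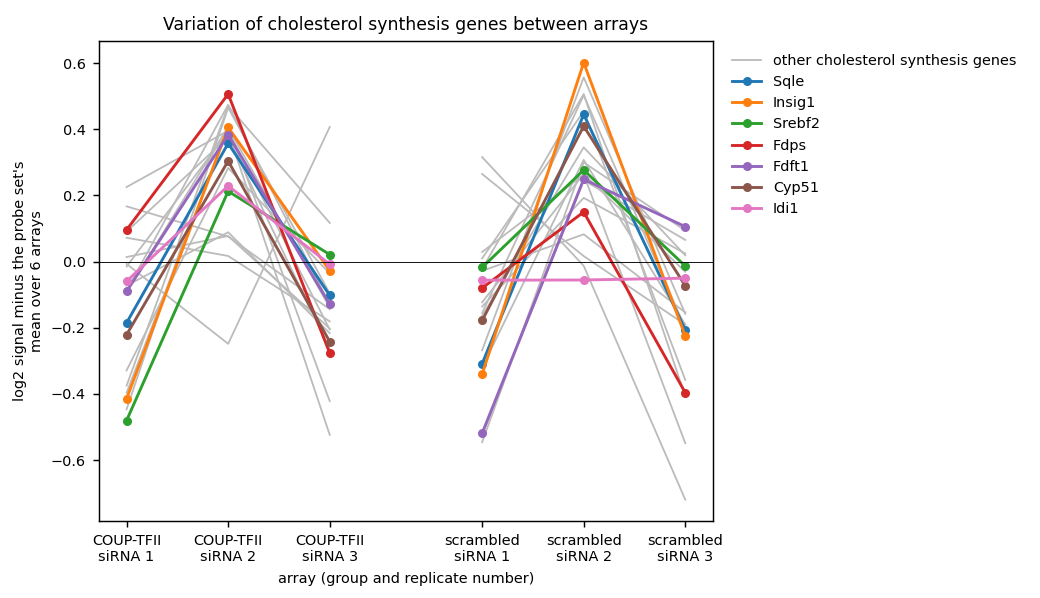
Log2 signal of each array minus the probe set's mean over the 6 arrays, for the brightest probe set of the 7 members (coloured) and of 14 other cholesterol synthesis genes (grey), with COUP-TFII siRNA arrays on the left and scrambled siRNA arrays on the right. The coloured lines peak on replicate 2 in both groups for 6 of 7 members, and the line of Idi1 is flat over the scrambled siRNA arrays.

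Many, but not all, of the other genes of cholesterol synthesis were also highest on replicate 2. Of 16 listed, 14 were measured. None was called in either fit, and the median log2 fold change was -0.053, with 6 genes higher and 8 lower by mean log2 signal. Replicate 2 was highest in both groups for 10 of 14, the exceptions being Mvd, Lbr, Tm7sf2 and Hsd17b7. Lss, the cyclase that makes lanosterol, read 134, 234 and 160 in depleted cells, against 147, 260 and 158 in control cells. Msmo1, a sterol demethylase that acts after Cyp51, read 897, 1611 and 1261 in depleted cells, against 809, 1379 and 1217 in control cells. Both had replicate 2 highest and replicate 1 lowest in each group, and Lss had a log2 fold change of -0.087 while Msmo1 had 0.14. The 4 genes with the lowest unadjusted p in this list were Hsd17b7, Mvk, Nsdhl and Sc5d, with log2 fold changes of 0.28, -0.13, 0.17 and 0.14 and unadjusted limma p-values from 0.438 to 0.570. Mvd, the decarboxylase that makes isopentenyl diphosphate, went another way, since it read 101, 85.6 and 135 in depleted cells and 69.6, 125 and 108 in control cells, lowest on replicate 2 in depleted cells and highest there in control cells.

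Genes that take up cholesterol or control SREBP2 were measured for 15 of 19 listed. None was called in either fit, and the median log2 fold change was -0.044, with 4 higher and 11 lower by mean log2 signal. Replicate 2 was highest in both groups for 9 of 15. Insig2, the second INSIG gene, read 122, 199 and 136 in depleted cells and 152, 192 and 145 in control cells. Stard4, a sterol carrier and SREBP2 target, read 179, 223 and 105 in depleted cells and 186, 241 and 101 in control cells. Both had replicate 2 highest in each group, but the lowest was replicate 3 for Stard4 in both groups and replicate 1 (depleted cells) or 3 (control cells) for Insig2. Mbtps2, the protease that makes the second cut of SREBP2, ran the opposite way, at 272, 184 and 406 in depleted cells and 352, 190 and 417 in control cells, lowest on replicate 2 in both. Scap, the escort protein, had a log2 fold change of -0.21, and Srebf1, which encodes SREBP1, of 0.14. Scarb1, a receptor for high-density lipoprotein, was lower in depleted cells in 3 of 3 pairs, with a log2 fold change of -0.23 (SE 0.19), and its limma adjusted p with the block was 0.777.

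Among 12 of 13 listed genes of cholesterol efflux, storage and the oxysterol receptors (LXR), Abca1 had the largest difference of those at or above the median signal. This transporter loads cholesterol onto lipoproteins and is a target of LXR. On the brightest of its 4 probe sets it read 263, 147 and 264 in depleted cells, against 343, 299 and 311 in control cells. The groups did not overlap there, as in 6.69% of all probe sets. The log2 fold change was -0.55 (SE 0.24), with a limma adjusted p of 1 and of 0.720 with the block. Abca1 was lowest on replicate 2 in both groups, opposite to the members. Abcg1, another LXR target, differed by -0.049 on the log2 scale, Nr1h2, which encodes an LXR, by 0.11, and Soat1, which esterifies cholesterol for storage, by 0.089. No gene of this list was called in either fit, and its median was 0.045.

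For the isoprenoid branch, which uses farnesyl diphosphate for prenylation, dolichol and ubiquinone, 13 of 15 genes were measured. None was called in either fit and the median log2 fold change was 0.031. Zmpste24, a protease that trims farnesylated prelamin A, was lower in depleted cells in all 3 pairs, at 286, 228 and 173 against 320, 397 and 208 in control cells (log2 fold change -0.41, limma adjusted p with the block 0.777). Of 15 genes of fatty acid synthesis, which SREBP1 controls more than SREBP2, all were measured and none was called in either fit. The median was -0.079, with 5 higher and 10 lower by mean log2 signal. Acaca, acetyl-CoA carboxylase, read 677, 605 and 667 in depleted cells, against 887, 787 and 847 in control cells, and Fasn, fatty acid synthase, read 781, 898 and 776 in depleted cells, against 955, 1118 and 917 in control cells. In both genes, each read on the brighter of 2 probe sets, the groups did not overlap, as in 6.69% of all probe sets. The log2 fold changes were -0.37 (limma adjusted p with the block 0.597) and -0.28 (0.739). No list was tested as a whole.

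To see which transcripts followed the members most closely, the mean profile of the 7 genes over the 6 arrays was compared with each probe set at or above the median signal. Pearson's r was at least 0.8 for 9.75% of these 15521 probe sets. The lists were counted without this signal limit. There r was at least 0.8 for 7 of 14 other cholesterol synthesis genes and 3 of 15 genes of uptake and control. It reached 0.8 for 1 of 12 genes of efflux, storage and LXR, 2 of 13 isoprenoid genes and 3 of 15 fatty acid genes. The efflux gene was Ch25h (0.988), at 0.93, 10.4 and 0.62 in depleted cells and 0.95, 6.77 and 1.04 in control cells. All these signals lay under the background scale, so Ch25h gave no usable reading. Only 5 of the 12 genes of its list lay at or above the median signal. Pearson's r was at least 0.8 for 0 of 7 β cell markers. In the sterol pathway the closest were Lss (0.96), Dhcr7 (0.90), which makes cholesterol in the last step of one branch, and Erg28 (0.89), with Insig2 (0.92) and the ubiquitin-conjugating enzyme Ube2g2 (0.89) among the genes that control SREBP2. Hsd17b7 (0.27), Mvd (0.10) and Lbr (-0.076) followed it little, and Mbtps2 was at -0.84. At or above the median signal, the 10 named genes outside the members closest to the profile were Ckap4, Ppif, Cluap1, Ech1, Acp6, Cog6, Mtres1, Ptbp1, Ntan1 and Hoxc9. Their r ran from 0.988 to 0.997 over 6 arrays, and none of the 10 was on a cholesterol list. Ech1, an enzyme of fatty acid oxidation, read 448, 752 and 510 in depleted cells, against 451, 711 and 486 in control cells. Gcg, whose signal also varied with the replicate number, followed another order, highest on replicate 1 and lowest on replicate 3 in both groups.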

How the data were processed

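RNA from 3 cultures electroporated with COUP-TFII siRNA and 3 with scrambled siRNA was hybridised to Affymetrix rat arrays. The authors computed 1 linear intensity per probe set with MAS5 (version not given in the sources used here), subtracted background and normalized with reference probes. The deposited intensities hold no detection calls, so the depth of each array is limited only by its signal over background, and 3 arrays a group limit the precision. From the 31099 probe sets, 57 controls were left out. Signals under 1 were set to 1 (1.85% to 5.49% of an array) and log2 was taken. The limma package (version 3.58.1, R 4.3.3) tested COUP-TFII siRNA against scrambled siRNA with lmFit and a trended eBayes. Tests were two-sided and unpaired, since no pairing is given in the methods, and p-values were adjusted by Benjamini-Hochberg over the 31042 probe sets left. The platform annotation gives 1 symbol to 20826 probe sets, several to 436 and none to 9780. Lists used the brightest probe set of a gene.

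Deviations from group means correlated at 0.111, 0.231 and 0.163 between arrays of the same number and from -0.146 to -0.0104 between others. Deviations within a group cancel out, so the values between unlike numbers are not independent of those between like numbers. The numbers were taken to pair the arrays, from the data and not from a stated design. The block was thus chosen from the same data in which its p-values and intervals are given. The paired fit used the replicate number as a block. The share of variance of the replicate number is its sum of squares after the group over the total.

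The members and lists were chosen with earlier results of these data known. Named genes are the members, Nr2f2, up to 4 genes a list by lowest p at or above the median signal, and the 10 genes most like the members. Lss, Msmo1, Mvd, Lbr, Tm7sf2, Insig2, Stard4, Mbtps2, Dhcr7, Erg28, Ube2g2, Ch25h and Ins2 were named after their values were seen. The fits were tested on simulated data. Alternatives run were limma untrended, the methods' t-test, the block, quantile normalization, median centring, log2(signal + 16), a filter at the median signal, the mean over probe sets and each array left out. Plots used Python 3.11.15 and matplotlib 3.10.9.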

Additional observations from a re-analysis of the deposited data

How the results depend on the processing

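None of the 11 member probe sets was called under any alternative run (limma untrended, the methods' t-test, the replicate block, quantile normalization, median centring, log2(signal + 16), a filter at the median signal, and each array or both replicate 2 arrays left out, the last chosen after seeing the data). The replicate block called 0 of the 11 and no gene of the cholesterol, isoprenoid and fatty acid lists, while over all probe sets it called 5, against 0 without it, among them Nr2f2 1389554_at. With 3 arrays a group, an adjusted p above 0.05 says little about stability, and dim probe sets such as Srebf2 1377489_at are limited by background.

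Leaving out 1 array turned the sign of several log2 fold changes, each given as its lowest and highest value. Sqle ran from -0.12 to 0.28, Insig1 from -0.23 to 0.27 (0.062 without both replicate 2 arrays), Srebf2 1371979_at from -0.31 to 0.035 and 1377489_at from -0.50 to 0.94. Fdft1 1367839_at ran from -0.12 to 0.26 and 1389906_at from -0.035 to 0.38, and Cyp51 1367979_s_at from -0.28 to 0.073. The median over the members ran from -0.12 to 0.26. The lists' medians ran from -0.11 to 0.15 for other cholesterol synthesis genes, from -0.14 to 0.054 for uptake and SREBP control, from -0.18 to 0.045 for efflux, from -0.088 to 0.097 for the isoprenoid branch and from -0.22 to 0.0017 for fatty acid synthesis. For the other cholesterol synthesis genes the median was -0.035 after quantile normalization and 0.0073 with the mean over a gene's probe sets, and for efflux it was -0.089 with that mean. The cause was not tested.

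The members' median difference of replicate 2 from the other numbers kept its sign under the alternatives run. In depleted cells it was 0.77 with median centring and ran from 0.46 to 0.52 with 1 array left out. In control cells it was 0.81 with median centring, 0.40 with log2(signal + 16) and 0.61 with the mean over probe sets, and ran from 0.48 to 0.59. For replicate 1 in depleted cells it was -0.14 with the mean over probe sets and ran from -0.52 to -0.052, and in control cells it was -0.45 with median centring and -0.27 with the mean, and ran from -0.59 to -0.10. Replicate 3 gave -0.16, -0.42, -0.18 and -0.11 in depleted cells with quantile normalization, median centring, log2(signal + 16) and the mean over probe sets, and -0.14, -0.43, -0.19 and -0.34 in control cells. With 1 array left out it ran from -0.46 to 0.052 in depleted cells and from -0.48 to 0.10 in control cells, positive where the replicate 2 array was the one left out. The cause was not tested beyond the settings named.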
